A study of Mus musculus with 16 samples.

Results

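The nuclear genes for subunits of the mitochondrial respiratory chain and ATP synthase were followed by complex in mouse germinal centre B cells with altered Crebbp. Members were the 84 gene symbols, of 48593 in the count table, that follow the naming of complex I (Nduf followed by a, b, c, s or v and a number), complex II (Sdha to Sdhd), complex III (Uqcr), complex IV (Cox4 to Cox8) and complex V (Atp5). They comprised 36 symbols of complex I, 4 of complex II, 8 of complex III, 19 of complex IV and 17 of complex V. The choice rested on symbols and used no measured value, but it was made with earlier results of these data known. A minimum on counts was passed by 80 members, among 16606 genes tested, and the other 4 were all complex IV isoforms. The naming takes in Cox6c2, which GENCODE annotates as a processed pseudogene, and Atp5s, coupling factor B, and misses some subunits under other symbols such as Ndufab1 and Cyc1.

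The respiratory chain passes electrons from NADH through complex I, or from succinate through complex II, to complex III and then through cytochrome c to oxygen at complex IV. Complexes I, III and IV move protons across the inner mitochondrial membrane, and complex V, the ATP synthase, uses the gradient to make ATP. Most subunits are encoded in the nucleus and imported, a small set is encoded in mitochondrial DNA, and complex II has nuclear subunits only. Germinal centre B cells divide fast and are selected for antibody affinity, and Crebbp encodes a histone acetyltransferase first described as a partner of the transcription factor CREB.

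Sheep red blood cells were used to immunise mice, and B220+, PNA+ and CD95+ germinal centre B cells of the spleen were sorted for RNA-seq. The interval was 12 days by the growth protocol but 10 days by a tag of the samples. In the cohort of the conditional knockout there were 3 wild type libraries, called KO cohort WT here, and 3 of homozygous Crebbp-KO, called KO. The cohort of the RH knock-in held 3 wild type libraries (RH cohort WT), 4 of the heterozygote Crebbp-RH/WT (RH HET) and 3 of the homozygote Crebbp-RH/RH (RH HOMO). All 5 groups were immunised alike, and the series title calls the alleles conditional and specific to germinal centres. The sources used here name neither the Cre line nor the age of the mice, and do not say whether a library came from 1 mouse, so the p values below measure spread among libraries that may be technical.

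The 16 libraries held 41362856 to 93040297 counts, of which members took 0.73% to 1.26%. Levels are given as CPM, counts scaled to the size of the library. Summed germinal centre B cell markers lay between 4740 and 6340 CPM in all libraries, T cell markers at or under 2.92 CPM and macrophage markers at or under 30.0 CPM. Crebbp itself read 123, 137 and 108 CPM in KO and 131, 127 and 149 CPM in KO cohort WT, so the total count of the gene did not separate these groups, and whether the deleted part was counted was not tested. RH cohort WT 1 is titled as RH and tagged as the KO cohort, and its title was followed. RH HOMO 2 and KO 1 stand apart in the members, and results that rest on these 3 libraries are given with and without them. In these sorted but bulk samples, fewer cells of a type and less RNA per cell cannot be told apart.

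Promoters of members were searched for known motifs, and any tie of these motifs to the levels given below was not tested. RefSeq windows of GRCm38.p6, from 250 bases before to 50 bases after a start, were matched for 68 of the 84 members (73 windows). Exact motifs were searched on both strands. The palindromic NRF1 site, whose letters are the capitals in the first 3 sequences below, was in 5 of the 73 windows (6.8%) and in 0.971% of all 32851 windows of the table. The GABP site CCGGAAG was in 16 (21.9%) against 8.86% of all windows, the YY1 site AAGATGGCG in 7 (9.6%) against 1.4%, and the CREB site TGACGTCA in 4 (5.5%) against 1.79%. NRF1, GABP and YY1 are textbook regulators of respiratory genes, and CREB recruits the Crebbp protein. A match describes these letters and does not show binding, and windows of 1 gene can overlap. The windows of the whole table were not matched to those of members in expression or base composition. At least 1 of the motifs was in windows of 28 members.

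The following stretches upstream of the RefSeq start show such matches in members of complexes I, II, III and V that are described below or lie in the windows with an NRF1 or CREB match. They are written 5′ to 3′ on the strand of the gene, with the motif in capitals. Atp5g2 (chr15:102671070-102671099, minus strand), Atp5k (chr5:108434430-108434459, minus strand) and Ndufa11 (chr17:56717692-56717721, plus strand) hold the NRF1 letters. Ndufa10 (chr1:92473808-92473835, minus strand), Ndufb2 (chr6:39592541-39592564, plus strand) and Uqcrfs1 (chr13:30545328-30545355, minus strand) hold the CREB letters. Sdhd (chr9:50603879-50603905, minus strand), Uqcr11 (chr10:80406871-80406897, minus strand) and Atp5j (chr16:84835021-84835047, minus strand) hold the GABP letters, in Sdhd on the opposite strand. In GENCODE M21, exons of the same gene overlap the stretches of Atp5g2, Atp5k, Ndufa10, Uqcrfs1 and Atp5j, the last also with an exon of Gabpa, which encodes a GABP subunit.
Atp5g2: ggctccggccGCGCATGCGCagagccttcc
Atp5k: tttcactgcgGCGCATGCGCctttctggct
Ndufa11: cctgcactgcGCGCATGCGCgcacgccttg
Ndufa10: cactcagtggTGACGTCAtggcagcgcg
Ndufb2: tgcgacgcagTGACGTCAcgggcc
Uqcrfs1: ggcgtcgcgcTGACGTCAcaaaccctgc
Sdhd: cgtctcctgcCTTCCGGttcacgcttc
Uqcr11: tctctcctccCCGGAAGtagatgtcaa
Atp5j: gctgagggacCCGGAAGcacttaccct

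Levels were compared between genes per kilobase of transcript, as the median over 16 libraries, for the 76 members whose median was above 5 CPM. The median member of complex I stood at 54.9 CPM per kb, of complex II at 79.5, of complex III at 108, of complex IV at 213 and of complex V at 153. The catalytic subunits of the ATP synthase led, with Atp5b (beta) at 530 CPM per kb and Atp5a1 (alpha) at 425 CPM per kb. Cox4i1, an early-assembling nuclear subunit of complex IV, followed at 321 CPM per kb, and Uqcrh, the hinge protein of complex III, at 274 CPM per kb. In complex I, levels ran from 16.4 CPM per kb for Ndufc1 to 153 CPM per kb for Ndufa4, which is now often counted with complex IV. In complex II, Sdhb, the iron-sulfur subunit, stood at 136 CPM per kb, the flavoprotein Sdha at 105, and the membrane anchors Sdhd and Sdhc at 54.0 and 11.2. Atp5s was the lowest of the 76, at 6.27 CPM per kb. Transcript length was taken from 1 GENCODE transcript a gene, and with the longest transcript the complex medians were 54.9, 79.5, 98.8, 213 and 151 CPM per kb.

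In 5 of 7 families with more than 1 gene, 1 isoform made up at least 98.1% per kb, and in the Cox7a and Atp5g families several genes were abundant. Cox4i1 made up at least 99.9% of Cox4i per kb in every group mean, Cox6a1 at least 99.9% of Cox6a and Cox8a at least 99.9% of Cox8. Cox6a2, an isoform of heart and muscle, had 45 counts over 16 libraries and Cox8b, another muscle isoform, 14 counts in 3 libraries. Cox7b2 and Cox8c had 0 counts in all 16 libraries, which at 3 counts allows up to 0.0786 CPM in the shallowest library. That limit is in counts, and whether both reads of a fragment were counted is not known. Cox4i2, the isoform of lung and low oxygen, had 106 counts in all and was at 0 in 4 libraries. In the Cox7a family, Cox7a2l, a factor of supercomplex assembly, made up 66.3% to 70% and Cox7a2 29.4% to 33.1% over the group means, with the muscle isoform Cox7a1 at 0.593% to 0.84%. The c-ring subunit of the ATP synthase has 3 genes with the same mature protein. Atp5g3 made up 44.8% to 49.4% of their sum, Atp5g2 36.5% to 40.3% and Atp5g1 14% to 15.9%. The order held with the longest transcripts, but the shares depended on the transcript chosen. They were then 63.1% to 67.5% for Atp5g3, 30.1% to 34.3% for Atp5g2 and 2.43% to 2.83% for Atp5g1.

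Cox6b2, the testis isoform of Cox6b, was a small part of its family. Its share per kb was 1.74% ± 0.124 (SD, n = 3) in KO and 0.903% ± 0.263 (SD, n = 3) in KO cohort WT, and from 0.714% to 0.897% in the means of the 3 RH groups. The 3 KO libraries ran from 1.63% to 1.87% and the KO cohort WT libraries from 0.601% to 1.08%. The share also depends on Cox6b1, which read 112, 137 and 151 CPM in KO and 176, 158 and 163 CPM in KO cohort WT. Cox6b1 differed by -0.31 ± 0.17 (SE, adjusted p = 0.514 by edgeR) and was not called. The CPM of Cox6b2 was 1.39, 1.97 and 1.97 in KO against 1.37, 0.719 and 1.34, a log2 difference of 0.65 ± 0.39 (SE) that was not called (edgeR quasi-likelihood test, adjusted p = 0.566).

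**Figure D1:**
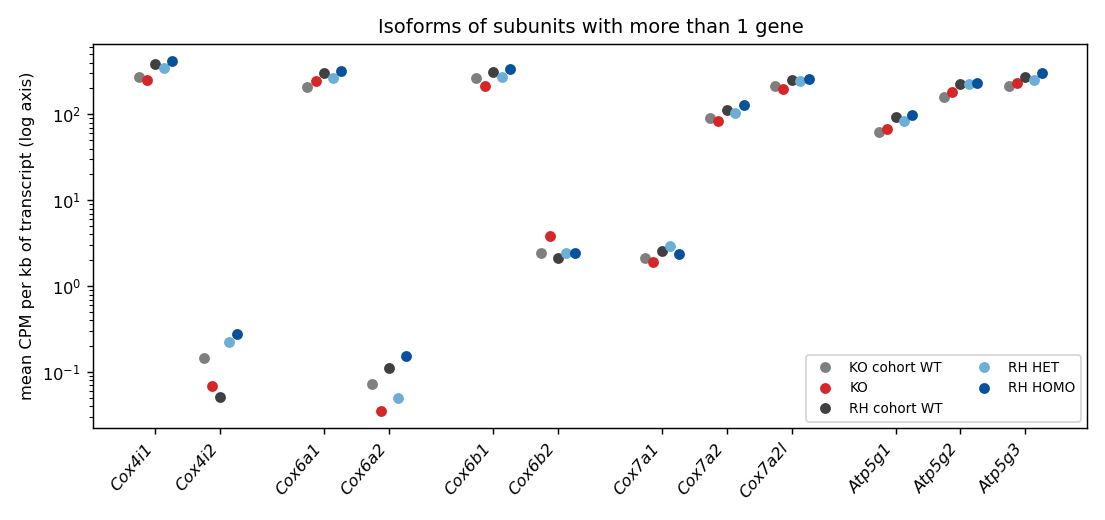
Mean CPM per kilobase of transcript (log axis) of each gene in 5 subunit families, with 1 point per group of 3 or 4 libraries. Cox4i2 and Cox6a2 sit far below their partners, Cox6b2 and Cox7a1 near 1% of their families, and the 3 Atp5g genes within a few fold of each other. With its longest transcript, not drawn here, Atp5g1 lies further below the other Atp5g genes.

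Most members were high or low in the same libraries, and libraries of 1 genotype differed. RH HOMO 2 was the highest of the 16 libraries for 74 of the 80 tested members, and KO 1 was the lowest for 57. The log2 CPM of a member was set against its mean over libraries, and the median deviation over members was 0.69 in RH HOMO 2, 0.31 in RH cohort WT 1, 0.26 in RH HET 2 and 0.22 in RH HOMO 1. It was -0.46 in KO 1 and between -0.27 and -0.14 in the other 5 libraries of the knockout cohort. The other 6 libraries lay between -0.07 and 0.16. All 6 libraries of the knockout cohort were below the mean of the series, and RH HOMO 3, at -0.05, lay below RH HOMO 1 and 2 of its own group.

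**Figure D2:**
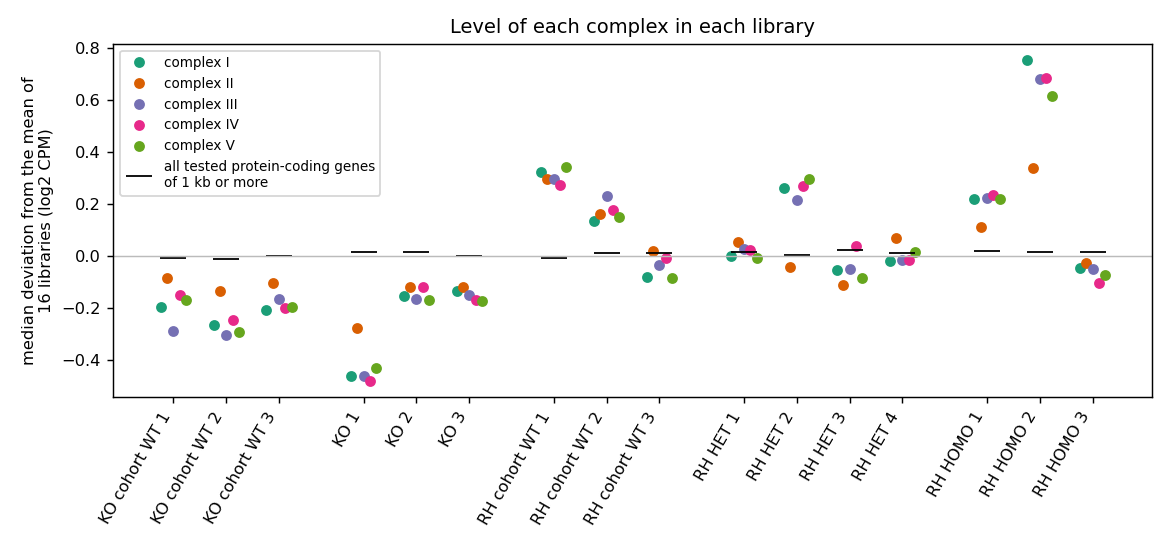
Median deviation of each complex from its mean over 16 libraries (y axis, log2 CPM) in each library (x axis). Points are complexes and dashes are all tested protein-coding genes of 1 kb or more, which stay near 0. Complexes I, III, IV and V reach 0.62 to 0.75 in RH HOMO 2, and complex II 0.34.

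In RH HOMO 2 the median deviation was 0.75 for complex I, 0.68 for III, 0.69 for IV, 0.62 for V and 0.34 for II, whose 4 transcripts are all over 1 kb. In RH cohort WT 1, the next highest library, complex II was at 0.30, within the 0.27 to 0.34 of the other complexes. Sdha gave the smallest range of all 76 members above 5 CPM. It read 293, 291 and 321 CPM in KO cohort WT, 295, 305 and 311 in KO, 307, 312 and 306 in RH cohort WT, 322, 291, 283 and 319 in RH HET, and 301, 325 and 295 in RH HOMO. Its highest library was 1.15 times its lowest, and all groups overlapped. Ndufs1, the largest subunit of the complex I electron arm, varied 1.33-fold and Atp5a1 1.36-fold.

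Among the 76 members above 5 CPM, the widest ranges were in small subunits. Atp5e, the epsilon subunit of the ATP synthase, ran from 58.5 CPM in KO 1 to 203 CPM in RH HOMO 2, a 3.46-fold range. Ndufa2, an accessory subunit, ran over 3.33-fold, Ndufb7 over 3.06-fold and Atp5j2, the f subunit, over 3.03-fold, each between the same 2 libraries. The median range was 2.36-fold in complex I, 1.58 in II, 2.2 in III, 2.27 in IV and 2.07 in V.

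**Figure D3:**
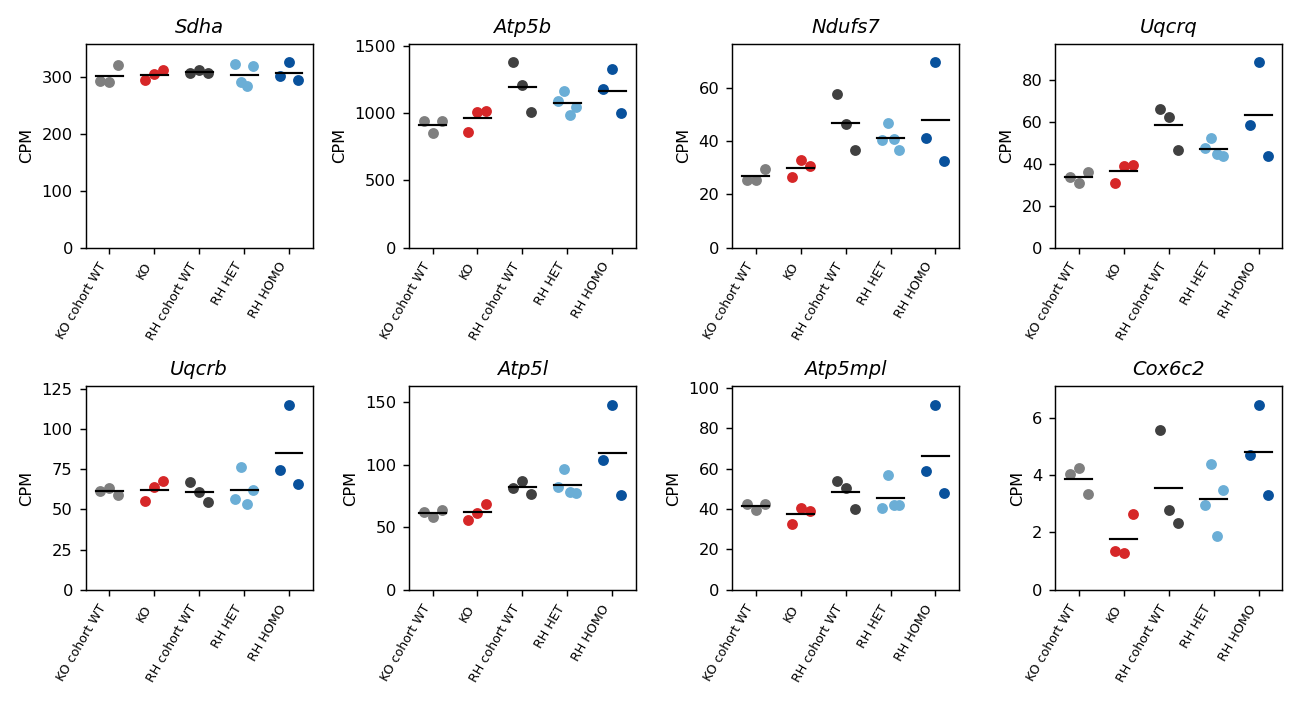
CPM of 8 members in each library (points) with the group mean (line), each y axis from 0. Sdha stays between 283 and 325 CPM, RH HOMO 2 is the top point for Ndufs7, Uqcrq, Uqcrb, Atp5l, Atp5mpl and Cox6c2, and the 3 KO points of Cox6c2 lie below its KO cohort WT points.

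Transcript length moved with this pattern. RH HOMO 2 minus the mean of RH HOMO 1 and 3 had a median of 0.64 (log2 CPM) over the 80 members, positive for 78. It was 0.66 for the 53 members with transcripts under 1 kb and 0.48 for the 27 longer ones. Over all tested protein-coding genes it was 0.52 under 1 kb (956 genes) and 0.0055 at 1 kb or more (11513 genes). The longer members were not matched in length to these longer genes, so the medians cannot separate membership from length. The longest members, Sdhc, Sdha, Ndufs1 and Atp5a1 (2471 to 3171 nt), were at 0.12 to 0.30. Cytosolic ribosomal protein genes, which are mostly short, had 0.73. The exceptions among members were Cox4i2, at under 1 CPM, and Uqcrc2, a core protein of complex III, at -0.19. The part of length in the pattern was not tested, and Crebbp was lowest in RH HOMO 2, at 68.6 CPM against 91.3 to 149 CPM in the other libraries.

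**Figure D4:**
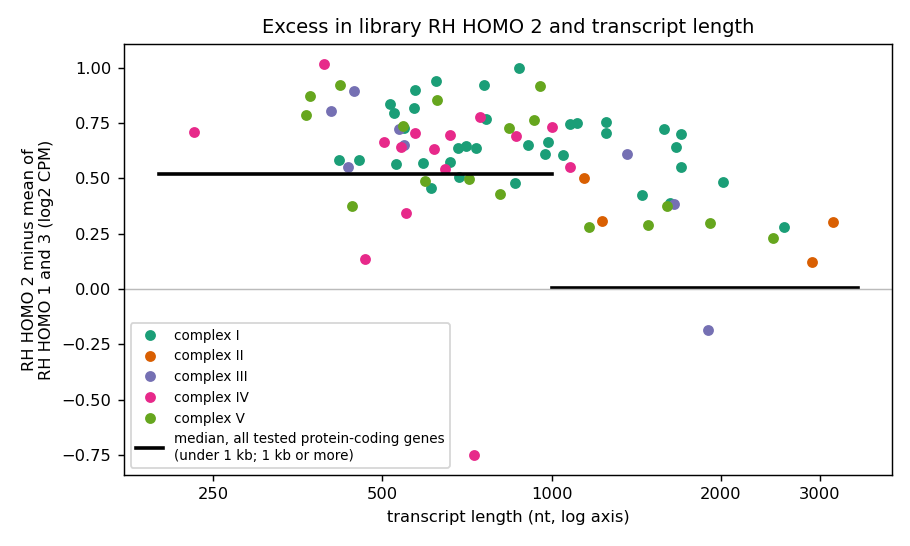
RH HOMO 2 minus the mean of RH HOMO 1 and 3 (y axis, log2 CPM) against transcript length (x axis, nt, log axis) for the 80 tested members, coloured by complex. Black lines are medians of all tested protein-coding genes under 1 kb (0.52) and of 1 kb or more (0.0055), and members on the right lie mostly above the line.

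Loss of Crebbp was compared with KO cohort WT. No member was called at an adjusted p under 0.05, where 0.572% of all tested genes were called higher and 0.729% lower. Differences centred on 0, with a median of -0.0063 on the log2 scale over 80 members, 39 of them positive, beside a median of -0.0021 over all genes. At an unadjusted p under 0.05 no member was higher and 1 was lower, where 6.47% and 5.65% of all genes were. DESeq2 called 0 members higher and 1 lower (1.63% and 1.72% of all genes), and limma-voom also called 0 and 1 (2.87% and 2.81%). The 95% interval lay within 1 log2 unit of 0 for 76 of the 80 members and within 0.5 for 56. By complex, the medians were -0.0032 (I), -0.074 (II), 0.066 (III), -0.099 (IV) and -0.0041 (V). With RH cohort WT 1 moved to the cohort its tag names, the median was -0.15 with 10 of 80 positive and no member called, and without KO 1 it was 0.077 with 56 positive.

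The member lower in each of these tests was Cox6c2, the processed pseudogene of Cox6c on chr12:56373593-56373823 (mm10, minus strand). It read 1.34, 1.28 and 2.64 CPM in KO and 4.02, 4.25 and 3.35 CPM in KO cohort WT. All 3 KO libraries were below the 3 wild type libraries. The log2 difference was -1.14 ± 0.37 (SE), with an adjusted p of 0.173 by edgeR. It was called by DESeq2 (adjusted p = 0.0467), by limma-voom (adjusted p = 0.039) and by edgeR on only the 6 libraries compared (adjusted p = 0.0462), and over all alternatives the adjusted p ran from 0.039 to 0.472. All 16 of its counts were even numbers. Reads that fit both it and Cox6c, on chromosome 15, make it uncertain, and Cox6c itself differed by -0.07 ± 0.16 (SE).

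In complex III, the core protein Uqcrc1 had 155, 177 and 162 CPM in KO and 139, 139 and 154 CPM in KO cohort WT, a log2 difference of 0.20 ± 0.10 (SE, adjusted p = 0.486 by edgeR). In complex II, the anchor Sdhd had 56.2, 57.2 and 62.1 CPM in KO and 69.8, 66.3 and 64.4 CPM in KO cohort WT, a difference of -0.19 ± 0.12 (SE, adjusted p = 0.607 by edgeR). Neither pair of groups overlapped, and neither difference was called. The other members with the smallest p of their complex and direction had differences between -0.17 and 0.20, namely Ndufa10, Ndufa13, Sdhc, Uqcrh, Atp5g2 and Atp5j. Of the members shown above with CREB letters, Ndufa10 differed by -0.16 ± 0.15 (SE), Ndufb2 by -0.08 ± 0.15 (SE) and Uqcrfs1 by -0.03 ± 0.15 (SE), and Ndufa11, whose window also holds them, by 0.03 ± 0.17 (SE).

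The heterozygous RH allele was compared with RH cohort WT. No member was called by edgeR, where 0.012% of all genes were called higher and 0.00602% lower. DESeq2 also called none (0.102% and 0.205% of all genes), nor did limma-voom (0.765% and 0.705%). The median difference was -0.10, with 12 of 80 members positive, beside -0.0069 over all genes and -0.09 over protein-coding genes under 1 kb. At an unadjusted p under 0.05 no member was higher and 2 were lower, Sdhd and Cox8a (3.48% and 3.7% of all genes). Without single libraries the median ran from -0.19, without RH cohort WT 3 (4 of 80 positive, 5 lower at an unadjusted p under 0.05), to 0.0064, without RH cohort WT 1 (46 of 80 positive). The share over all genes is not given for these fits. Intervals of 78 members lay within 1 log2 unit of 0.

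Sdhd had 65.1, 66.3, 53.2 and 75.3 CPM in RH HET and 85.0, 81.1 and 66.5 CPM in RH cohort WT. The groups overlapped, and the log2 difference was -0.25 ± 0.12 (SE, adjusted p = 0.689 by edgeR). Cox8a, the expressed isoform of a small complex IV subunit, had 127, 113, 122 and 121 CPM in RH HET and 143, 144 and 133 CPM in RH cohort WT. All 4 heterozygous libraries were lower, and the log2 difference was -0.22 ± 0.10 (SE, adjusted p = 0.694 by edgeR).

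The homozygous RH allele was compared with RH cohort WT in the same way. No member was called by edgeR, where 0.578% of all genes were called higher and 0.994% lower. DESeq2 also called none (1.55% and 2.46% of all genes), nor did limma-voom (3.22% and 3.52%). The median difference was 0.18, with 66 of 80 members positive, beside 0.016 over all genes. At an unadjusted p under 0.05, 9 members were higher, 11.2% against 6.38% of all genes, and none was lower, against 6.56%. Of 956 protein-coding genes with transcripts under 1 kb, 98 were higher and 29 lower at this threshold, and their median was 0.12. Of the 53 members under 1 kb, 8 were higher and none lower. By complex the medians were 0.21 (I), -0.018 (II), 0.11 (III), 0.15 (IV) and 0.16 (V). Without RH HOMO 2 the median was -0.069, 26 of 80 were positive, no member was higher at an unadjusted p under 0.05 and 5 were lower. Without RH HOMO 3 the median was 0.33, 78 of 80 were positive and 36 were higher at an unadjusted p under 0.05. The median thus changed its direction when 1 library was left out, and it was 0.051 without RH cohort WT 1 and RH HOMO 2. The share of all genes passing the unadjusted threshold is not given for these fits. Intervals of 76 members lay within 1 log2 unit of 0 and of 32 within 0.5.

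Uqcrb, a small subunit of complex III, gave the smallest p. It read 74.6, 115 and 65.5 CPM in RH HOMO and 66.8, 61 and 54.7 CPM in RH cohort WT. RH HOMO 2 was highest, and RH HOMO 3 fell among the wild type libraries. The log2 difference was 0.49 ± 0.17 (SE, adjusted p = 0.197 by edgeR), and 0.20 without RH HOMO 2. Atp5l, the g subunit at the ATP synthase dimer, read 104, 148 and 75.9 CPM in RH HOMO and 81.6, 87.3 and 76.5 CPM in RH cohort WT, again with overlap. Its difference was 0.42 ± 0.17 (SE, adjusted p = 0.273 by edgeR). It was 0.14 without RH HOMO 2, and it was called without RH HOMO 3, at 0.61 (adjusted p = 0.0337 by edgeR, and up to 0.78 over all alternatives).

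The remaining 7 members of the 9 were complex I subunits Ndufa2, Ndufa3, Ndufb8, Ndufc2 and Ndufs4 and ATP synthase subunits Atp5e and Atp5mpl, with log2 differences from 0.28 to 0.48. The core subunits given next were chosen by name and had smaller differences, and all but Cox5a have transcripts over 1 kb. Sdha differed by -0.0061 ± 0.08 (SE), Ndufv1, which binds NADH, by -0.04 ± 0.15 (SE), Atp5a1 by -0.03 ± 0.10 (SE) and Atp5b by -0.03 ± 0.12 (SE). Cox5a, a partner of Cox4i1 in the assembly of complex IV, differed by -0.0033 ± 0.15 (SE) and Uqcrfs1, the Rieske iron-sulfur protein, by 0.09 ± 0.14 (SE). Sdhb differed by 0.11 ± 0.14 (SE). Mean CPM in RH HOMO and RH cohort WT was 118.4 and 110.9 for Ndufs1, and 307.4 and 287.8 for Cox4i1. For Uqcrc1 these means were 195.1 and 202.8 CPM. Ndufv2, a complex I subunit with a transcript of 1697 nt, had a mean of 130.8 CPM in RH HOMO and 104.2 CPM in RH cohort WT.

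**Figure D5:**
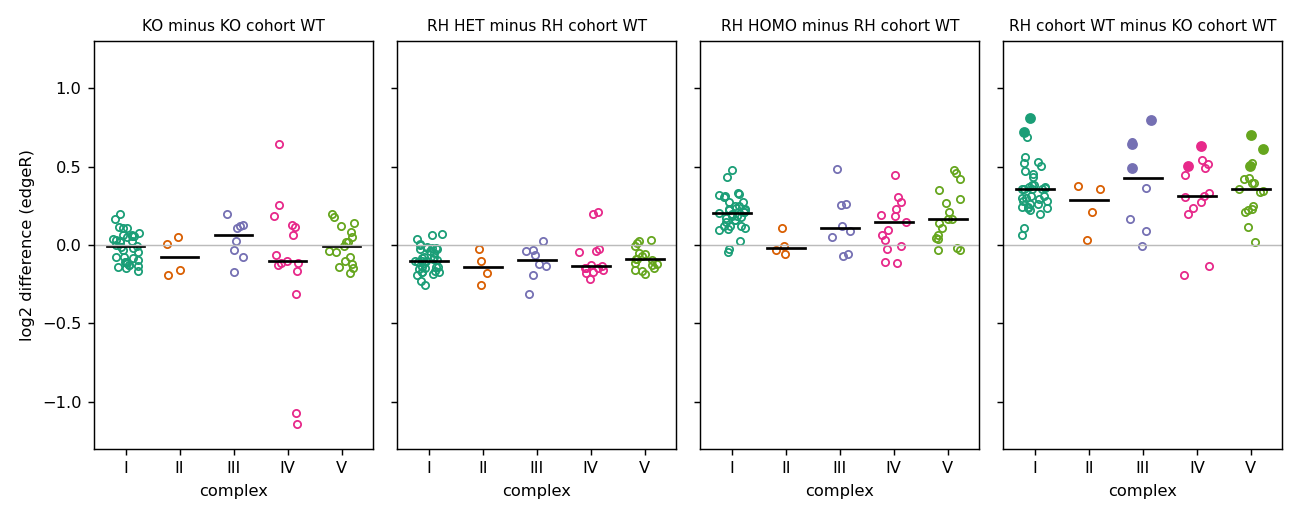
Log2 difference by edgeR (y axis) of each tested member by complex (x axis) in 4 comparisons, with the complex median as a line. Filled points are called at an adjusted p under 0.05, and only the comparison of the wild types holds any. Cox4i2, at under 1 CPM, is beyond the axis in 3 panels.

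RH HOMO was also set against RH HET. No gene of any kind was called by edgeR (0% higher and 0% lower), and at an unadjusted p under 0.05, 5.6% of all genes were higher and 5.78% lower. DESeq2 called 0.217% of all genes higher and 0.578% lower, and limma-voom 0.265% and 0.271%. No member was called by any of the 3 tools. The median member difference was 0.26, with 76 of 80 positive, and 20 members were higher at an unadjusted p under 0.05 (25% of the members) and none was lower. Protein-coding genes under 1 kb had a median of 0.22, with 149 of 956 higher and 24 lower at that threshold. Of the members under 1 kb, 15 of 53 were higher. Without RH HOMO 2 the median over all members was 0.042, 54 of 80 were positive and 0 passed the unadjusted threshold. Without RH HOMO 3, 61 passed it, and without RH HET 2, 40 did. The share over all genes is not given for these fits. Atp5mpl, a small proteolipid of the ATP synthase, had the smallest p. It read 58.9, 91.6 and 48.0 CPM in RH HOMO and 40.4, 56.7, 42.0 and 42.0 CPM in RH HET. RH HET 2 lay above RH HOMO 3, so the groups overlapped, and the difference was 0.55 ± 0.18 (SE, adjusted p = 0.331 by edgeR), or 0.23 without RH HOMO 2. This comparison shares its RH HOMO libraries with the one before.

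The effect of the homozygous RH allele minus that of the knockout tests whether the alleles differ. No member was called by edgeR, where 0.0783% of all genes were called higher and 0.163% lower, nor by DESeq2 (0.656% and 0.807% of all genes). At an unadjusted p under 0.05, 3 members were higher, Cox6c2, Atp5mpl and Ndufs4, and none lower (4.42% and 5.11% of all genes). The median difference of effects was 0.20, with 62 of 80 positive, and -0.05 with 33 of 80 positive without RH HOMO 2. Protein-coding genes under 1 kb had a median of 0.15 over all libraries. Without RH HOMO 3, 24 members were higher at an unadjusted p under 0.05. The share over all genes is not given for that fit. Intervals within 1 log2 unit of 0 were found for 69 members. By limma-voom, which called 1.9% of all genes higher and 1.99% lower, Cox6c2 was called at 1.70 and Uqcrc1 at -0.37. By edgeR they were 1.59 ± 0.52 (SE, adjusted p = 0.269) and -0.25 ± 0.15 (SE, adjusted p = 0.634).

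The wild types of the cohorts differed in the members, in a comparison added after the data were seen. RH cohort WT against KO cohort WT gave 10 members called higher by edgeR and 0 lower, 12.5% of the 80 against 3.17% of all genes higher and 1.88% lower. At an unadjusted p under 0.05, 38 members were higher and none lower (14% and 11.6% of all genes). DESeq2 called 24 higher and 0 lower (7.12% and 5.46% of all genes), and limma-voom 44 and 0 (13.4% and 12.8%). The median difference was 0.36, with 76 of 80 positive, beside 0.0087 over all genes, and complex medians ran from 0.28 (II) to 0.43 (III). The shift was not particular to the members. Mitochondrial ribosomal protein genes had a median of 0.38 with 17 of 78 called higher, and mitochondrial import genes 0.32 with 6 of 23. Cytosolic ribosomal protein genes had 0.41 with 9 of 87, protein-coding genes under 1 kb 0.32, and tricarboxylic acid cycle genes 0.12 with 1 of 18. The 10 were Ndufs7 and Ndufa13 (complex I), Uqcrc1, Uqcrq and Uqcr10 (III), Cox5b and Cox8a (IV), and Atp5d, Atp5g1 and Atp5g2 (V), with log2 differences from 0.50 to 0.81. The count moved from 0 to 25 as single libraries were left out, being 0 without RH cohort WT 1, RH cohort WT 2, KO cohort WT 1 or KO cohort WT 2. It was 3 without KO cohort WT 3 and 25 without RH cohort WT 3. The share over all genes is not given for these fits. Under every one of these fits at least 73 of 80 members were positive. Of the members under 1 kb, 8 of 53 were called and of the longer ones 2 of 27, beside 80 of 956 and 393 of 11513 protein-coding genes of those lengths called higher. With RH cohort WT 1 moved, 0 members were called and the median was 0.11. Cohort, batch and the strain background of the alleles cannot be told apart here.

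Ndufs7, an iron-sulfur subunit of complex I, had the largest difference of the 10 called. It read 58.0, 46.5 and 36.7 CPM in RH cohort WT and 25.4, 25.5 and 29.4 CPM in KO cohort WT, with no overlap. The log2 difference was 0.81 ± 0.21 (SE, adjusted p = 0.0392 by edgeR). Uqcrq, a small subunit of complex III, read 66.3, 62.4 and 46.4 CPM against 33.5, 31.0 and 36.0 CPM, a difference of 0.80 ± 0.19 (SE, adjusted p = 0.0313 by edgeR). Cox5b, a zinc-binding subunit of complex IV, read 173, 152 and 130 CPM against 97.3, 93.6 and 103 CPM, a difference of 0.63 ± 0.17 (SE, adjusted p = 0.0396 by edgeR). Atp5d, the delta subunit of the ATP synthase stalk, read 193, 155 and 133 CPM against 91.0, 96.0 and 108 CPM, a difference of 0.70 ± 0.19 (SE, adjusted p = 0.0417 by edgeR). In each of the 4 genes RH cohort WT 1 was highest and RH cohort WT 3 lowest of its group. Sdha differed by 0.03 ± 0.08 (SE) and Uqcrb by -0.0083 ± 0.17 (SE), and Sdhc, with the smallest p in complex II, by 0.36 ± 0.12 (SE, adjusted p = 0.0749 by edgeR).

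Other genes of the pathway were read from lists chosen with earlier results of these data known. Among subunits outside the symbol patterns, 0 of 6 tested were called in KO, RH HET or RH HOMO, and Cyc1, cytochrome c1 of complex III, was 0.60 ± 0.10 (SE) higher in RH cohort WT than in KO cohort WT (adjusted p = 0.00871 by edgeR). Of 50 tested assembly factors of complexes I to V, 1 was called in KO, where 0.729% of all genes were called lower, and none in RH HET or RH HOMO. It was Sdhaf2, which attaches the flavin to Sdha, at 73.9, 81.8 and 88.3 CPM in KO and 102, 111 and 109 CPM in KO cohort WT. All KO libraries were lower, with a log2 difference of -0.40 ± 0.09 (SE, adjusted p = 0.032 by edgeR). The call was lost without any 1 of 5 of the 6 libraries (adjusted p from 0.0784 to 0.169) and held without KO 3 (0.0477). The 10 RH libraries lay between 97.5 and 124 CPM.

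Of 18 tested genes of mitochondrial gene expression and its regulators, 1 was called in KO, where 0.572% of all genes were called higher. Polrmt, the mitochondrial RNA polymerase, read 49.0, 52.6 and 46.6 CPM in KO and 37.8, 38.5 and 38.0 CPM in KO cohort WT. All 3 KO libraries were higher, by 0.37 ± 0.09 (SE, adjusted p = 0.0414 by edgeR), and the call was lost without any 1 of the 6 libraries (adjusted p from 0.0689 to 0.151). It was also lost with no count filter and with RH cohort WT 1 moved, and the 10 RH libraries lay between 41.2 and 48.7 CPM. No gene was called in KO, RH HET or RH HOMO among 13 of coenzyme Q synthesis, 18 of the tricarboxylic acid cycle, 23 of mitochondrial import and 6 carriers, nor among 78 mitochondrial and 87 cytosolic ribosomal protein genes. Nrf1 lay between 70.6 and 84.7 CPM in all libraries, and Gabpa between 110 and 166 CPM with its lowest value in RH HOMO 2.

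The 13 subunits encoded in mitochondrial DNA followed another order of libraries than the nuclear members. Mitochondrially encoded genes took 3.43% of counts in KO 2 and 7.34% in RH cohort WT 1, with 7.15% in RH cohort WT 2 and 5.28% in RH HOMO 2, where the nuclear members were highest. RH HOMO 1 and 3 had 4.59% and 4.32%. Only 7 of the 13 were abundant, at 1330 to 30500 CPM in every library, and the other 6 lay at or under 112 CPM, a split made after the levels were seen. For the 7 abundant genes the median log2 difference was -0.46 in RH HOMO, where that of the nuclear members was 0.18. None was called by edgeR (0.994% of all genes lower). DESeq2 called 2 lower (mt-Co1 and mt-Nd5) and limma-voom 5, where 2.46% and 3.52% of all genes were called lower. The median ran from -0.67 without RH cohort WT 3, when edgeR called mt-Co1 and mt-Nd5 lower, to -0.30 without RH cohort WT 1. In RH HET the median was -0.56 and ran from -0.76 to -0.40 without the same libraries. There edgeR called none of the 7, DESeq2 1 lower (mt-Nd2) and limma-voom all 7, against 0.00602%, 0.205% and 0.705% of all genes. In RH cohort WT against KO cohort WT both sets were higher, the abundant mitochondrial genes by 0.70, or 0.22 with RH cohort WT 1 moved. Of them mt-Nd1 and mt-Co1 were called by edgeR, where 3.17% of all genes were called higher. DESeq2 called 6 higher and limma-voom 7 (7.12% and 13.4% of all genes). By edgeR the count was 7 without RH cohort WT 3 and 0 without any other of the 6 libraries. The calls in genotype comparisons among the 6 rare genes rested on single libraries. mt-Nd4l was called lower in RH HOMO at -5.31 (adjusted p = 0.0232 by edgeR), with 112 CPM in RH cohort WT 1 and at most 2.13 CPM in the other 15 libraries, and -1.07 without that library (adjusted p = 0.324). mt-Co2 was called higher in KO at 2.97 (adjusted p = 0.0472 by edgeR), with 13 CPM in KO 1 and at most 4.17 CPM elsewhere, and 1.49 without it (adjusted p = 0.369). Reads of nuclear copies make these genes uncertain.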

How the data were processed

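The 16 samples are TruSeq RNA v2 libraries of total RNA, as the labels' protocols state. The authors deposited whole-number read counts per gene symbol, made per the submitters' processing notes with CASAVA 1.8, HISAT2 and featureCounts on mm10. The sources used here give no version of the last 2 and no strand setting, and overlapping genes cannot be told apart. Groups came from sample titles, and replicate numbers only name libraries. Replicate pairs differed beyond sampling noise (chi-square of 16.3 to 209 per degree of freedom).

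Counts were fitted in R 4.3.3 with edgeR 4.0.16: filterByExpr, TMM scaling, 5 group means over 16 libraries, the quasi-likelihood test and Benjamini-Hochberg adjustment over 16606 genes, with calls at an adjusted p under 0.05. Adjusted p values are from this test unless DESeq2 1.42.0 or limma 3.58.1 (voom with quality weights) is named. A standard error is the log2 difference divided by the square root of F. CPM uses TMM-scaled totals, and deviations use log2 CPM with a prior count of 2. Positions and lengths are from GENCODE M21 (GRCm38, the assembly of mm10), promoter sequences from RefSeq (GRCm38.p6). The fit was tested on simulated data.

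Members and lists were chosen with earlier results of these data known. Named members are those called in any comparison, the smallest p in each direction per complex and comparison, 10 core subunits, isoform families and members that failed the count filter. Members named for a wide range or an unadjusted p were chosen after their values were seen. Totals per library ran from 41362856 to 93040297 counts. Alternatives were other scalings, filters and tests, only the libraries compared, RH cohort WT 1 moved, and libraries left out. The comparison of the wild types was added after seeing the data.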

Additional observations from a re-analysis of the deposited data

Results flagged for a closer look

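In RH HET, a group of 4 libraries, 1 library stood apart by Dixon's test at its 95% critical value of 0.829 for 13 of 80 tested members, and for the median of complex I. In each case it was RH HET 2, at the high end. In complex I it read 42.8 CPM for Ndufa1 (34.0 to 34.6 in the other 3), 114 for Ndufa10, 103 for Ndufa13, 24.2 for Ndufb2 (19.5 to 19.8), 104 for Ndufb7 (69.9 to 73.9), 83.7 for Ndufv1, 125 for Ndufv2 and 59.9 for Ndufv3. In complex III it read 78.2 CPM for Uqcr10 and 187 for Uqcrh (150 to 152). In complex IV it read 137 CPM for Cox6c and 121 for Cox7b, and in complex V 56.7 CPM for Atp5mpl (40.4 to 42.0). The median deviation of complex I was 0.2631 in RH HET 2 and -0.0533 to -0.0013 in the other 3. Chance flags about 1 in 20 groups, and members of 1 library are not independent. Genes outside the members were not checked, so the share over all genes is not known. The median deviation of all tested protein-coding genes under 1 kb was also high, at 0.23 in RH HET 2 and -0.0113 to 0.0186 in the other 3. Groups of 3 libraries were not tested in this way, so RH HOMO 2 and KO 1 could not be.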

How the results depend on the processing

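No paired analysis was possible because the labels give the libraries no replicate numbers. Of the values recomputed under other settings, 1214 kept their side of the threshold or moved within the spread, 9 gained a call, 85 lost one, 24 medians or counts moved and 34 changed sign. The causes were not tested.

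In KO, 1 member was called lower by DESeq2, limma-voom and edgeR on the libraries compared. Without single libraries the RH HOMO median ran from -0.069 to 0.33 and its count of higher calls from 0 to 1. The RH HOMO against RH HET median was 0.042 with RH cohort WT 1 and RH HOMO 2 both left out and ran from 0.042 to 0.40 without single libraries. The median difference of effects ran from -0.050 to 0.33, and limma-voom called 1 member higher and 1 lower. Between the wild types, 21 members were called without a count filter, 24 by DESeq2, 44 by limma-voom, 29 on the libraries compared, 0 with RH cohort WT 1 moved (median 0.11), 17 with both libraries left out, and 0 to 25 without single libraries. Shares over all genes are given only for the main fit, DESeq2 and limma-voom.

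Small differences changed sign. With RH cohort WT 1 moved, KO gave -0.11 for Ndufa13 and -0.060 for Sdhc, RH HOMO 0.021 for Uqcrc2, and the difference of effects 0.38 for Ndufs7 and 0.036 for Sdhc. By limma-voom RH HET gave -0.059 for Atp5l and -0.049 for Uqcrb, RH HOMO 0.055 for Uqcrc2, and RH HOMO against RH HET 0.053 for Atp5s and 0.083 for Uqcrc2. With both libraries left out Uqcrc2 gave 0.095 in RH HOMO and 0.050 against RH HET. Without single libraries Sdhc in KO ran from -0.011 to 0.14. In RH HET, Atp5l ran from -0.035 to 0.091 and Uqcrb from -0.079 to 0.11. In RH HOMO, Atp5a1 ran from -0.11 to 0.032, Ndufv1 from -0.29 to 0.11, Sdhb from -0.077 to 0.23, Sdhc from -0.16 to 0.037 and Uqcrc2 from -0.13 to 0.031. Against RH HET, Atp5s ran from -0.14 to 0.093 and Uqcrc2 from -0.077 to 0.049. Ndufs7 in the difference of effects ran from -0.52 to 0.058, and Uqcrb between the wild types from -0.075 to 0.068. Intervals of Cox4i2, Cox6b2, Cox6c2 and Cox7a1 passed 1 log2 unit in KO and RH HOMO. Cox4i2 had at most 17 counts in a library, Cox6b2 23 to 103, Cox7a1 15 to 108 and Cox6c2 58 to 408.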
